A study of Mus musculus with 6 samples.

Results

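Tubulin is the target of PTX (paclitaxel), and 10 of its genes were followed here in a mouse gastric adenocarcinoma line and in its PTX-resistant derivative. They were chosen by name from the 21959 genes of the count table: 6 beta tubulins (Tubb2a, Tubb2b, Tubb3, Tubb4b, Tubb5, Tubb6) and 4 alpha tubulins (Tuba1a, Tuba1b, Tuba1c, Tuba8). All 10 passed the filter on low counts, as did 11795 genes in all. The parental cells, labelled MPC, are 1 clone from a tumour of Trp53 and Cdh1 double-knockout gastric organoids, whose floxed alleles had been cut by tamoxifen-activated Mist1-CreER in culture. The resistant cells, labelled MPC-PTX, were raised from them through more than 30 cycles of PTX and were again picked as a single clone, so the 3 libraries of each line sample a clone and not a population of lines. By derivation both lines carry the same deletions, but counts over a whole gene do not show which exons were read and so check neither the deletions nor the labels. No difference in either gene passed the test: Cdh1 had 2561, 2555 and 2812 counts in MPC and 3068, 3018 and 2217 in MPC-PTX, while Trp53 had 98, 63 and 120 against 142, 130 and 111. The labels do not say that the replicates were separate cultures, and p-values then measure only the spread between these libraries.

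Microtubules are polymers of alpha/beta tubulin dimers. PTX binds the beta subunit on the inner face of the microtubule and stabilizes the polymer, which blocks mitosis. Mammals carry several genes for each subunit, called isotypes; the proteins are nearly alike except in their acidic C-terminal tails, which carry modifications and bind motors and other microtubule proteins. Tubb5 (class I) is the common beta isotype of dividing cells, Tubb3 (class III) is best known from neurons, and raised Tubb3 has long been studied in taxane-treated carcinomas.

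The isotypes differ most in the stretch that encodes these tails, shown here for the beta genes other than Tubb6. Each line gives the last 60 coding bases before the stop codon, read from GENCODE M21 transcripts (GRCm38); capitals mark bases that differ from Tubb5 in a pairwise alignment.
Tubb5: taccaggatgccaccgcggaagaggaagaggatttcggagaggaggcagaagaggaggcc
Tubb4b: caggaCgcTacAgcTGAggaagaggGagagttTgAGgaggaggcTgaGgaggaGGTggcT
Tubb2a: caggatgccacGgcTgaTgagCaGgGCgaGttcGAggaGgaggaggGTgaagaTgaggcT
Tubb2b: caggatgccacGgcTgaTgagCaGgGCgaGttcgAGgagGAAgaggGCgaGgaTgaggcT
Tubb3: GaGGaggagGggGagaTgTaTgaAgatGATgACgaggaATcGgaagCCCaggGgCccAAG
Counting gaps, 32 alignment columns differed between Tubb3 and Tubb5, the most among the genes shown, against 18 for Tubb2a, 21 for Tubb2b and 22 for Tubb4b. Tubb3 has 450 codons before the stop, Tubb5 444 and the others shown 445. The last 60 coding bases of Tubb3 and Tubb5 therefore cover different stretches. How many of the 32 columns come from this offset was not counted.

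Likeness along the whole coding sequence bears on the counts, because reads from shared stretches cannot be assigned to 1 gene. Coding identity ran from 80.31% to 96.49% over the 15 beta pairs, highest for Tubb2a and Tubb2b, and from 79.16% to 98.3% over the 6 alpha pairs, highest for Tuba1a and Tuba1b. Among 100-base windows of the longest transcript, all of those of Tubb3, Tubb5 and Tubb6 were found in no other annotated gene, as were 87.48% for Tuba8. The share was 63.07% for Tubb2a, 72.25% for Tubb2b and 69.38% for Tubb4b. It was only 34.15%, 27.01% and 46.57% for Tuba1a, Tuba1b and Tuba1c, so the split among these 3 alpha genes is uncertain and their sum is given beside it. The sources used here do not say how reads with several matches were counted.

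The 6 libraries held 16574580 to 23148182 counts, of which the 10 tubulin genes took 0.3359% to 0.4058%. The MPC libraries varied more than those of MPC-PTX, with a biological coefficient of variation of 17.88% against 3.014%. MPC replicate 3 stood apart from its group: its deviation from the group mean ran against GC content (Spearman rho = -0.58, across genes, which are not independent). The other MPC replicates had 0.47 and 0.35. Deviations from a group mean cancel out for each gene, so opposite signs are partly built in. MPC replicate 3 had the lowest TMM-scaled CPM (counts relative to the library total) of the 3 MPC libraries for all 10 tubulin genes. Replicate 1 had the highest for 9. Transcripts of the 10 genes had 51.2% to 57.9% GC against a median of 49.8% over the tested genes. Values without replicate 3 are given beside the results it changes.

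edgeR's quasi-likelihood test found 2 of the 10 genes higher in MPC-PTX at an adjusted p below 0.05 (Tubb3, Tubb2b), where 14.1% of all tested genes were higher, and 3 lower (Tuba8, Tubb4b, Tuba1c), where 15.6% were lower. Only Tubb3 rose and only Tuba8 fell by the study's rule, which asks for a log2 fold change beyond 1 in either direction and an unadjusted p under 0.05; 3.77% and 4.34% of the tested genes did so. Leaving out MPC replicate 2 or any MPC-PTX library left 1 gene lower (Tuba8), where 9.04% to 10.2% of all genes were lower, and leaving out MPC replicate 3 gave 5 lower, where 27.1% were. Leaving out MPC replicate 1 gave 3 higher, where 18.3% of all genes were. Over all genes the higher calls went from 14.1% to between 6.75% and 7.79% without MPC replicate 2 or an MPC-PTX library and to 25.4% without MPC replicate 3. The most abundant isotype, Tubb5, did not pass the test in the full data. Among the 10, the largest fold changes lay in the genes with the lowest levels, Tubb3 and Tuba8.

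Tubb3 (ENSMUSG00000062380, chromosome 8 of GRCm38, 123411424 to 123422015, plus strand) had 52, 20 and 20 counts in MPC and 308, 255 and 194 in MPC-PTX. The groups did not overlap, and MPC replicate 1 was the highest of its group. Mean CPM were 1.59 ± 1.02 and 12.1 ± 0.95 (SD, n = 3), which is 7.66-fold higher, or 2.94 on the log2 scale (standard error, SE, 0.36, 95% interval 2.09 to 3.78, adjusted p = 0.00142). Without MPC replicate 1 the log2 fold change was 3.59 (edgeR, adjusted p = 3.299e-05). It ranked 52nd from the top among the tested genes. Since RNA came from whole cultures, a rise in each cell and a rise in the number of cells that make the message cannot be told apart. Neuronal markers were at or near 0: of 9 marker genes none passed the filter, 3 were at 0 in all libraries, the highest count was 10, and their summed CPM was 0.361 to 0.691 in MPC and 0.171 to 0.297 in MPC-PTX. The gene just upstream on the same strand, Mc1r, which encodes a melanocortin receptor, had 0, 0 and 2 counts in MPC and 1, 3 and 1 in MPC-PTX.

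Tuba8 (ENSMUSG00000030137, chromosome 6, 121210696 to 121226854, plus strand), an alpha isotype known from muscle, testis and brain, moved the other way. It had 105, 104 and 100 counts in MPC against 14, 6 and 10 in MPC-PTX. The 3 MPC libraries were close to each other and far above all of MPC-PTX. Mean CPM fell from 5.25 ± 0.40 to 0.488 ± 0.188 (SD, n = 3), a 10.8-fold lower level with a log2 fold change of -3.43 (SE 0.27, 95% interval -4.05 to -2.81, adjusted p = 0.000161). An antisense gene overlaps 368 of its exon bases and is not in the count table, and the use of strand in counting is not given in the sources used here.

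**Figure D1:**
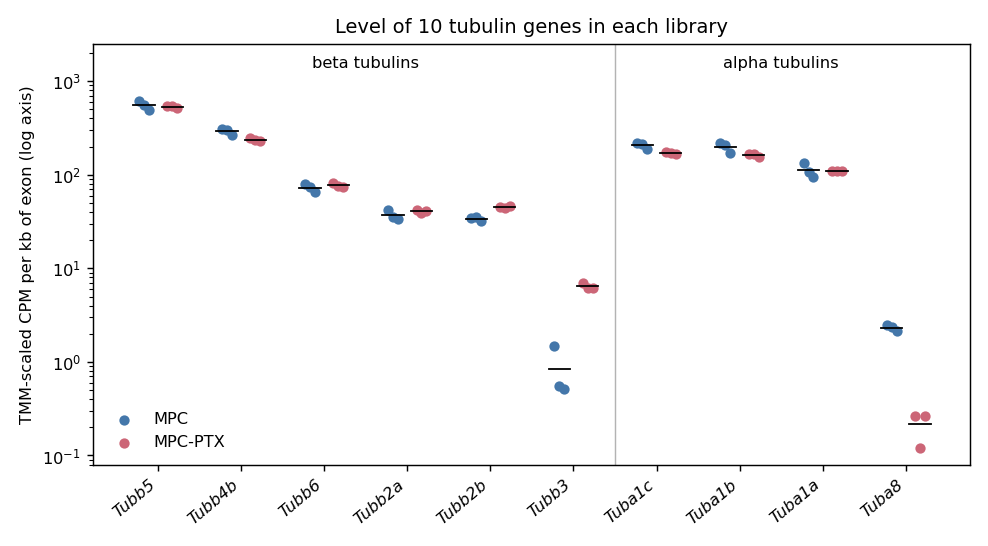
Levels of the 10 tubulin genes as TMM-scaled CPM per kb of exon on a log axis; each point is 1 library, black lines are means of 3 libraries. Tubb3 is higher and Tuba8 lower in every MPC-PTX library, while the more abundant isotypes differ far less between the lines.

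The other called beta genes changed far less. Tubb2b (chromosome 13, 34126748 to 34130466, minus strand), a class II isotype, had 1502, 1563 and 1515 counts in MPC and 2404, 2233 and 1775 in MPC-PTX, which is 77.7 ± 4.3 and 103 ± 2.4 CPM (SD, n = 3). All MPC-PTX libraries lay above all MPC libraries, and the log2 fold change was 0.41 (SE 0.07, adjusted p = 0.00474). Its near copy Tubb2a, encoded beside it, had 1268, 1095 and 1117 counts against 1572, 1411 and 1102. Its CPM overlapped between the groups (59.2 ± 7.2 and 65.4 ± 1.8), with a log2 fold change of 0.15 (95% interval -0.08 to 0.37, adjusted p = 0.303); without MPC replicate 1 it was 0.25 (adjusted p = 0.0259) and without MPC replicate 3 it was 0.03 (adjusted p = 0.766). How shared reads were split between the pair does not alter their sum, but dropping such reads or counting them more than once would. The sum rose by a log2 fold change of 0.30 (SE 0.07, adjusted p = 0.0186). Without MPC replicate 3 this was 0.19 (adjusted p = 0.00829), and the call was lost without MPC replicate 2 (0.30, adjusted p = 0.0694) or any MPC-PTX library (0.29, 0.32 and 0.29, adjusted p = 0.0842, 0.0669 and 0.0853 without replicates 1, 2 and 3).

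Tubb4b (chromosome 2, 25222160 to 25224702, minus strand), the class IVb isotype found in many tissues and in cilia, had 12127, 12330 and 11633 counts in MPC and 12139, 10989 and 8016 in MPC-PTX. Once scaled, CPM fell from 613 ± 47 to 497 ± 21 with no overlap. The log2 fold change was -0.30 (SE 0.08, 95% interval -0.48 to -0.13, adjusted p = 0.0211). Without MPC replicate 3 it was -0.42 (edgeR, adjusted p = 5.722e-05). The call was lost when MPC replicate 2 (adjusted p = 0.0867) or any MPC-PTX library was left out (adjusted p = 0.0601, 0.0926 and 0.103 without replicates 1, 2 and 3), with log2 fold changes of -0.27 to -0.33.

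Tubb5 (chromosome 17, 35833921 to 35838306, minus strand) had 38187, 36076 and 33852 counts in MPC and 42071, 39809 and 28932 in MPC-PTX. Its mean CPM was 1838 ± 202 in MPC and 1770 ± 44.5 in MPC-PTX, and the groups overlapped. The log2 fold change of -0.05 had a 95% interval of -0.27 to 0.16 (adjusted p = 0.680), which leaves room for a change of modest size in either direction; without MPC replicate 3 it was -0.19 (adjusted p = 0.00459). Tubb6, the class V isotype, had 3624, 3467 and 3335 counts against 4714, 4093 and 3065, and 177 ± 16 CPM against 189 ± 10. Its log2 fold change was 0.10 (95% interval -0.10 to 0.29, adjusted p = 0.426).

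Among the alpha genes, the 3 close relatives Tuba1a, Tuba1b and Tuba1c make up most of the message; all lie in a cluster on chromosome 15 between 98931425 and 99038110. Tuba1c had 9453, 9554 and 8935 counts in MPC and 9427, 8703 and 6367 in MPC-PTX. Its CPM fell from 475 ± 40 to 391 ± 12, a log2 fold change of -0.28 (SE 0.08, adjusted p = 0.0291), and this call too was lost without MPC replicate 2 (adjusted p = 0.11) or any MPC-PTX library (adjusted p = 0.0854, 0.11 and 0.125 without replicates 1, 2 and 3). The log2 fold change in those fits stayed between -0.25 and -0.30. Without MPC replicate 3 it was -0.40 (edgeR, adjusted p = 5.354e-05).

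Tuba1b had 7713, 7555 and 6622 counts against 7258, 6876 and 4935, or 372 ± 48 and 304 ± 10 CPM. The groups did not overlap, yet the log2 fold change of -0.29 missed the threshold (SE 0.10, adjusted p = 0.0614), and MPC replicate 3 was the lowest MPC library; without it the value was -0.44 (adjusted p = 3.435e-05). With the libraries corrected for GC content and transcript length, the log2 fold change was -0.26 (adjusted p = 0.00275). Tuba1b did not pass without MPC replicate 1 (-0.22, edgeR, adjusted p = 0.104) or 2 (-0.26, adjusted p = 0.190). The same held without MPC-PTX replicate 1, 2 or 3 (-0.30, -0.30 and -0.26, adjusted p = 0.15, 0.155 and 0.196). Tuba1a, the isotype of the developing brain, had 4482, 3722 and 3563 counts against 4635, 4364 and 3320. Its 3 MPC libraries spanned 171 to 238 CPM and those of MPC-PTX 197 to 198, with a log2 fold change of -0.02 (95% interval -0.29 to 0.25, adjusted p = 0.902). The sum of the 3 genes gave a log2 fold change of -0.23 (SE 0.09, 95% interval -0.44 to -0.02, adjusted p = 0.0953), and -0.37 without MPC replicate 3 (adjusted p = 6.709e-05).

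**Figure D2:**
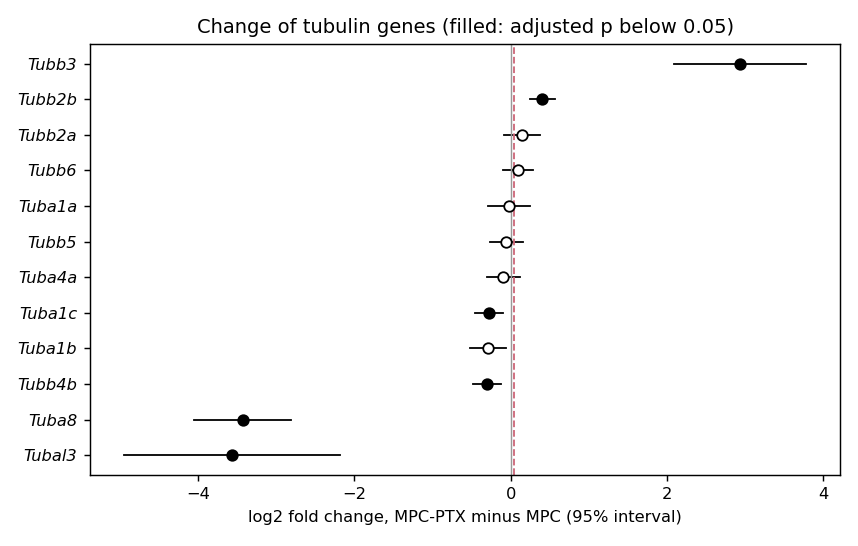
Log2 fold change of 12 tubulin genes, MPC-PTX minus MPC, with 95% intervals; filled points have an adjusted p below 0.05 (edgeR) and the dashed line is the median of all tested genes, 0.04. Tubb3 lies far to the right, Tuba8 and Tubal3 far to the left, and the remaining genes within 0.5 of 0.

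Dividing counts by exon length allows the isotypes to be set against each other, and their order was much the same in both lines. In MPC, levels per kb ran Tubb5 (553 ± 61 CPM per kb), Tubb4b (294 ± 23), Tuba1c (208 ± 17), Tuba1b (199 ± 26), Tuba1a (111 ± 19), Tubb6 (72.7 ± 6.7), Tubb2a (36.8 ± 4.5), Tubb2b (33.9 ± 1.9), Tuba8 (2.32 ± 0.18) and Tubb3 (0.849 ± 0.546). Tuba1c and Tuba1b overlapped, as did Tubb2a and Tubb2b. In MPC-PTX no neighbours overlapped; Tubb2b (44.9 ± 1.0) stood above Tubb2a (40.6 ± 1.1) and Tubb3 (6.46 ± 0.51) above Tuba8 (0.215 ± 0.083). The other isotypes kept their places.

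The beta pool is taken here as the 6 beta genes, each as counts per kb, and a share as 1 gene's percentage of that sum in a library. Shares do not depend on how libraries were scaled. Tubb5 held 56.7%, 55.5% and 55.1% of the pool in MPC and 56%, 57.3% and 56.6% in MPC-PTX, a difference of 0.88 percentage points with overlap (exact permutation test, two-sided, p = 0.3). It ran from 0.54 points without MPC replicate 3 to 1.36 points without MPC replicate 1, and was 0.57 without MPC-PTX replicate 2. The test cannot give a p below 0.1 with 3 libraries against 3.

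Tubb4b gave up the largest share. It held 28.7%, 30.2% and 30.1% in MPC and 25.7%, 25.2% and 25% in MPC-PTX, a drop from 29.7 ± 0.9% to 25.3 ± 0.4% (difference -4.37 points, exact p = 0.1). The 4 minor isotypes each held more in MPC-PTX, with no overlap and an exact p of 0.1 for each. A smaller share of 1 gene by itself raises the summed share of the others, so these are not 4 separate results. In level, Tubb2a and Tubb6 did not pass the test. Tubb2b went from 3.43 ± 0.18% to 4.78 ± 0.23%, Tubb6 from 7.34 ± 0.06% to 8.27 ± 0.27%, Tubb2a from 3.71 ± 0.21% to 4.32 ± 0.13%, and Tubb3 from 0.0834 ± 0.0469% to 0.687 ± 0.039% (SD, n = 3). Despite its fold change, Tubb3 therefore stayed the smallest of the 6, at 0.73%, 0.653% and 0.676% of the beta message in the MPC-PTX libraries.

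Within the alpha pool of 4 genes, Tuba1a held 23.06%, 20% and 20.9% in MPC and 24.3%, 24.5% and 25.4% in MPC-PTX (difference 3.39 points, exact p = 0.1, no overlap). Tuba1b held 38.2 ± 0.9% and 36.6 ± 0.4% (difference -1.54 points, exact p = 0.1), and Tuba1c 40 ± 1.5% and 38.6 ± 0.4% (difference -1.45 points, exact p = 0.3). The Tuba1c difference was -0.82 points without MPC replicate 3 and -2.3 without MPC replicate 1. Tuba8 went from 0.448 ± 0.018% to 0.0487 ± 0.0190% (exact p = 0.1). A readthrough gene, Gm49450, covers 473 exon bases of Tuba1a and 426 of Tuba1b and had 0 counts in all libraries, so reads on those bases may have gone uncounted. With only the exon length outside other genes, a setting chosen after the data were seen, Tuba1b led in both lines (41.6 ± 0.9% and 39.7 ± 0.5%) ahead of Tuba1c (33.7 ± 1.4% and 32.3 ± 0.3%). Which of this pair is the main alpha isotype thus depends on the length used.

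**Figure D3:**
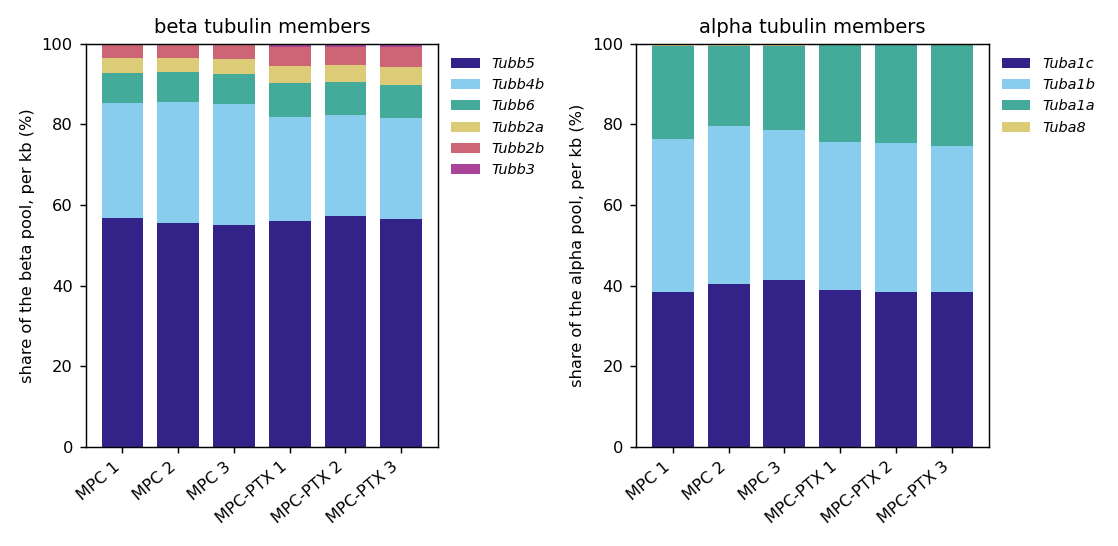
Share of each isotype in the beta pool (left) and the alpha pool (right) in each of the 6 libraries, from counts per kb of exon, in percent. Tubb5 holds 55.1% to 57.3% throughout and Tubb4b is smaller in every MPC-PTX library; Tubb3 and Tuba8, at under 1%, are thin slivers at the top.

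The pools as wholes were also compared. The beta pool summed to 1076, 1008 and 888 CPM per kb in MPC and 965, 942 and 912 in MPC-PTX, a log2 ratio of -0.07 with overlap (exact p = 0.5). The alpha pool summed to 573, 532 and 455 against 451, 446 and 431, a log2 ratio of -0.22 (exact p = 0.1), with no overlap but a narrow gap that closed with library size alone as the scale (exact p = 0.3) and with the further alpha tubulins added (exact p = 0.2); MPC replicate 3 was the lowest of its group in both, and without it the log2 ratios were -0.20 and -0.37. Over the 10 members, the ratio of beta to alpha message was 1.88, 1.89 and 1.95 in MPC and 2.14, 2.11 and 2.11 in MPC-PTX. Every resistant library thus lay above every parental one, by a larger gap than the spread within either line. With the further alpha and beta tubulins added, the ratio was 1.565, 1.581 and 1.628 against 1.746, 1.737 and 1.739.

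Of 6 further alpha and beta tubulin genes in the table, 2 passed the filter. Tuba4a, an alpha isotype, had 7971, 7555 and 6984 counts in MPC and 8738, 7911 and 5813 in MPC-PTX (log2 fold change -0.09, adjusted p = 0.470, and -0.23 with adjusted p = 0.00284 without MPC replicate 3). If it is added to the alpha pool it holds 16.59 ± 0.07% in MPC and 17.93 ± 0.28% in MPC-PTX; 1379 of its exon bases overlap Stk16, a kinase gene on the other strand. Tubal3, a divergent alpha tubulin, had 14, 17 and 18 counts against 0, 2 and 2, a log2 fold change of -3.57 (SE 0.59, adjusted p = 0.0043). It ran from -2.94 without MPC-PTX replicate 1 to -4.06 without MPC-PTX replicate 3 and stayed past the test with each library left out. The rest were at or near 0: Tubb4a had 3, 7 and 7 counts against 6, 19 and 12, Tubb1, the platelet isotype, 1 count in 1 MPC-PTX library, and the testis isotypes Tuba3a and Tuba3b 2 and 4 counts in 1 MPC-PTX library each. At this depth these 4 could not be tested.

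Genes around a tubulin gene can be set beside it, here 10 other tested genes taken in equal number from either side. Over all tested genes 14.1% were called higher and 15.6% lower. The 10 around Tubb3 had log2 fold changes of 0.01 to 0.57 (median 0.28, 6 called higher, none lower). The 662 tested genes of chromosome 8 had a median of 0.26. The 10 around Tuba8 ran from -2.76 to 0.17 (median -0.22; 4 called lower, none higher), against a median of 0.02 on chromosome 6. Around Tubb2a and Tubb2b the median was -0.34, with 6 called lower and none higher, against -0.16 over chromosome 13, while Tubb2b itself rose. The 10 around Tubb6 had a median of 0.48, with 6 called higher and none lower, against 0.18 over its chromosome. Medians were -0.22 around Tubb4b, 0.10 around Tubb5 and -0.05 around the Tuba1 cluster. Whether these neighbourhoods have a part in the tubulin changes was not tested.

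Cells hold tubulin message in check through the newly made protein: when free dimers are in excess, TTC5 recognizes the first residues of nascent tubulin and, with SCAPER, recruits the CCR4-NOT deadenylase to the message. All 6 beta genes share their first 4 residues, and the 4 alpha genes share another set of 4. Ttc5 had 921, 972 and 936 counts in MPC and 856, 843 and 635 in MPC-PTX. Its CPM fell from 48 ± 2.7 to 37.4 ± 0.8, a log2 fold change of -0.36 (SE 0.08, adjusted p = 0.0114); the call was lost without MPC replicate 2 (-0.33, adjusted p = 0.0507) or any MPC-PTX library (-0.34, -0.37 and -0.36, adjusted p = 0.0675, 0.0569 and 0.0582 without replicates 1, 2 and 3). Scaper had 124, 128 and 316 counts against 205, 249 and 188, with MPC replicate 3 far above the other MPC libraries, and a log2 fold change of 0.13 (SE 0.34, adjusted p = 0.805). Without that library it was 0.60 (adjusted p = 0.008), and -0.08 without MPC replicate 1 or 2.

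New tubulin chains are folded by prefoldin and the CCT chaperonin and joined into dimers by the cofactors TBCA to TBCE with ARL2. Of 21 such genes, all tested, 5 were lower in MPC-PTX (23.8%, against 15.6% of all tested genes), 1 was higher (4.76%, against 14.1%) and 15 did not pass; the median log2 fold change was -0.10 against 0.04 over all tested genes. Tbca, which holds free beta tubulin, fell from 157 ± 15 to 114 ± 0.7 CPM (log2 fold change -0.46, adjusted p = 0.00496). Tbce, which holds alpha tubulin, fell by 0.39 on the log2 scale (adjusted p = 0.0324), and Tbcd, which takes beta tubulin into the final complex, rose by 0.42 (adjusted p = 0.0336). Cct3, a chaperonin subunit with the most counts of the list, had a log2 fold change of -0.19 (adjusted p = 0.142). Leaving out MPC replicate 3 gave 11 lower, where 27.1% of all genes were lower, and 2 higher, where 25.4% were higher. Cct3 was then -0.32 (adjusted p = 0.000265) and Tbcd 0.25. Leaving out MPC replicate 2 or any MPC-PTX library left 1 lower (Tbca), where 9.04% to 10.2% of all genes were, and 0 higher, with adjusted p of 0.0605 to 0.129 for Tbce and 0.1 to 0.108 for Tbcd.

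Microtubules start from gamma-tubulin complexes. Of 12 genes for these and for the centriolar tubulins, 11 were tested, 4 were higher in MPC-PTX (36.4%, against 14.1% of all tested genes) and none lower (against 15.6%), with a median log2 fold change of 0.24. Tubgcp5, a subunit of the ring complex, rose by 0.53 on the log2 scale (adjusted p = 0.0276), delta-tubulin Tubd1 by 0.52 (adjusted p = 0.00524) and the core subunit Tubgcp3 by 0.44 (adjusted p = 0.00211). Gamma-tubulin itself, Tubg1, had 131 ± 20 and 125 ± 2 CPM (log2 fold change -0.07, adjusted p = 0.667). Without MPC replicate 2 or any MPC-PTX library the number higher was 2, Tubd1 and Tubgcp3, where 6.75% to 7.79% of all genes were higher, and Tubgcp5 had an adjusted p of 0.0742 to 0.106. Without MPC replicate 3 there were 5 higher, where 25.4% of all genes were higher, and 2 lower, where 27.1% were lower. Tubg1 was then -0.22 (adjusted p = 0.0107), and 0.05 without MPC replicate 1.

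Many of the enzymes that modify tubulin act on the tails. Of 27 listed genes 26 were found and 19 tested; 1 was lower (5.26%, against 15.6% of all tested genes), 1 higher (5.26%, against 14.1%) and 17 did not pass, with a median log2 fold change of 0.09. Vash1, a vasohibin that removes the last tyrosine of alpha tubulin, had 66, 71 and 70 counts in MPC against 46, 47 and 37 in MPC-PTX (log2 fold change -0.75, adjusted p = 0.0101, and -0.70 with adjusted p = 0.0543 without MPC-PTX replicate 1). Sirt2, a tubulin deacetylase, had 816, 859 and 800 against 1259, 1163 and 831 (log2 fold change 0.30, adjusted p = 0.032). Sirt2 was 0.19 without MPC replicate 3 and lost its call without MPC replicate 2 or any MPC-PTX library (0.28 to 0.34, adjusted p = 0.061 to 0.135). The glutamylase Ttll4 had the most counts (log2 fold change 0.32, adjusted p = 0.0538, and 0.39 with adjusted p = 0.000242 without MPC replicate 3). These counts moved with the settings, as did those of all genes (6.75% to 25.4% higher and 9.04% to 27.1% lower over the libraries left out); leaving out MPC replicate 2 or any MPC-PTX library gave 0 higher, leaving out MPC replicate 3 gave 4 higher and 5 lower, and the number lower was 2 without MPC replicate 1 and 0 without MPC-PTX replicate 1.

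**Figure D4:**
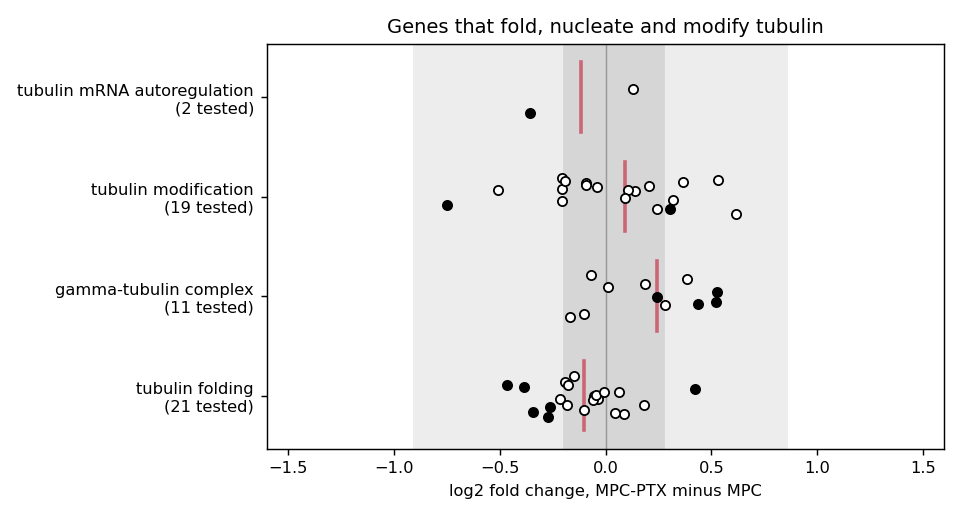
Log2 fold change, MPC-PTX minus MPC, of the tested genes of 4 lists; filled points have an adjusted p below 0.05 (edgeR), red bars are list medians, and the grey bands hold the central 50% and 90% of all tested genes. Folding genes lie mostly left of 0 (median -0.10) and gamma-tubulin complex genes mostly right (median 0.24), all within 1 of 0.

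Other features of the cells moved alongside. Of 15 proliferation genes 4 were lower (26.7%, against 15.6% of all tested genes) and none higher (against 14.1%), and their summed CPM was 3884 to 4205 in MPC and 4184 to 4205 in MPC-PTX; Top2a had the most counts. All 7 epithelial markers were lower in MPC-PTX (against 15.6% of all tested genes), from a summed 9400 to 10890 CPM down to 5678 to 5866, with Krt19 the most abundant. Summed markers were 9.83 to 10.9 CPM against 8.63 to 9.92 for fibroblasts, 11.2 to 12.8 against 9.80 to 10.6 for leukocytes and 2.63 to 3.08 against 2.21 to 2.79 for endothelial cells. The part of the epithelial change in the tubulin changes was not tested.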

How the data were processed

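Poly-A RNA of MPC and MPC-PTX cells (3 libraries each, all labelled with the same batch number) was measured by RNA sequencing. The authors filtered reads with fastp 0.22.0 (submitters' processing notes), mapped them with HISAT2 and deposited unnormalized read counts of every gene in every library, without pooling; counts in the table of the whole series were identical to those of the single libraries. The genome build, annotation, counting tool, use of strand and handling of multiply mapped reads are not given in the sources used here. Groups and replicate numbers came from the sample titles.

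Counts were scaled by TMM, filtered with filterByExpr (minimum count 10) and tested with edgeR 4.0.16 (robust quasi-likelihood test, R 4.3.3) on 11795 genes, with Benjamini-Hochberg adjustment over all of them; the code was tested on simulated data. Pool totals and shares, from counts per kb of merged exons (GENCODE M21, GRCm38, matched by Ensembl identifier), were compared by exact two-sided permutation. Depth was 16574580 to 23148182 counts per library; counting error is included in the model. The members and gene lists were chosen with earlier results of these data known. Named were all members, further tubulins and autoregulation genes, and from the folding, gamma-tubulin and modification lists the 3 called genes with the largest changes plus the gene with the most counts; Matcap1 was not found by name. Alternatives were DESeq2 1.42.0, other scalings and filters, a replicate block, a loess correction for GC content and length (span 0.3), other lengths and pools, and each library left out. The coding ends of the alpha genes are not reported here.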

Additional observations from a re-analysis of the deposited data

How the results depend on the processing

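The calls for Tubb3, Tubb2b and Tuba8 held in every alternative in which they were tested, with log2 fold changes of 2.63 to 3.59, 0.31 to 0.44 and -3.64 to -3.12. A minimum of 10 counts in every sample removed Tuba8, so that 0 members were lower by the study's rule. Small changes turned sign: over the left-out libraries Tubb5 ran from -0.187 (without MPC replicate 3) to 0.0215 (without MPC replicate 1), Tubb6 from -0.0227 (without MPC replicate 3) to 0.159 (without MPC replicate 1) and Tuba1a from -0.174 (without MPC replicate 3) to 0.12 (without MPC replicate 1), and Tuba1a was 0.0182 with library size alone. Tuba1b passed with DESeq2 (adjusted p = 0.0343) and with DESeq2's size factors (0.0478). It did not pass with library size alone (edgeR, 0.0855), no filter (0.0519) or at least 10 counts in every sample (0.0591). No share or pool difference turned sign, but the alpha pools overlapped with library size alone (exact p = 0.3) and with the widened pool (0.2). The cause of these changes was not tested. Library size alone moved the median of all genes from 0.04 to 0.08.

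Leaving out a library gave 1 to 5 members lower, 0 to 2 folding genes higher and 1 to 11 lower, 2 to 5 gamma-tubulin complex genes higher and 0 to 2 lower, and 0 to 4 modification genes higher and 0 to 5 lower, while calls over all genes ran from 803 to 3020 higher and 1077 to 3227 lower. Over the same fits Scaper ran from -0.0781 (without MPC replicate 1; -0.0762 without MPC replicate 2) to 0.597 (without MPC replicate 3), and Tubg1 from -0.224 (without MPC replicate 3) to 0.0464 (without MPC replicate 1); leaving out libraries for these genes and for the summed genes was added after the data were seen. Folding genes higher numbered 0 with at least 10 counts in every sample, where 11.3% of all genes were higher. With the GC and length correction they numbered 0, where 16.2% were higher. Modification genes higher numbered 0 with DESeq2 (12.3% of all genes higher), with its size factors (12.2%) and with at least 10 counts (11.3%). They numbered 3 with library size alone (16.9%), 2 with no filter (9.95%) and 2 with the correction (16.2%). Modification genes lower numbered 2 with DESeq2's size factors (16.9% of all genes lower) and 4 with the correction (24.2%).

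Same-numbered replicates deviated together only weakly (r = 0.15, -0.02 and 0.17), and not every library correlated best with its own number. With the replicate number as a block, 3 folding genes were lower, 2 modification genes higher, 2 members higher and 4 lower, Tuba1b among them (log2 fold change -0.28, adjusted p = 0.0362), and 1787 genes were higher and 1717 lower in all against 1668 and 1841 without it.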
